A study of Caenorhabditis elegans with 2 samples.

Results

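The genes described here encode the proteins of the large subunit of the cytosolic ribosome in the nematode Caenorhabditis elegans. All 50 protein-coding genes whose symbol begins with rpl- or rla- in the Ensembl WBcel235 annotation were taken, of 19973 nuclear protein-coding genes in all. Binding of the zinc finger protein ZTF-6 to them was examined by chromatin immunoprecipitation and sequencing (ChIP-seq). Per the labels, the worms were of strain RW12301, in which CRISPR had inserted a tag at the ztf-6 gene (allele st12301, ztf-6::TY1::EGFP::3xFLAG). They were whole young adults of 62 hours, grown after larvae had been synchronised by bleaching and starvation. An antibody against GFP was used, while the antibody field of both samples names ztf-6. There was 1 group, with 2 biological replicates and no second genotype, treatment or time. All values therefore come from the same tagged strain and from whole animals, with no separation by tissue. Each peak carries the authors' own signal value, whose scale the sources used here do not state, and the lists give no read depth. No error can therefore be given for a single peak, and the replicates are set side by side.

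Ribosomal proteins of the large subunit fold around its RNAs, which themselves form the peptidyl transferase centre. Some of the proteins reach toward that centre, some line the tunnel through which the new chain leaves, and others form the stalk that recruits translation factors. Their genes are among the most highly transcribed in growing cells, and an adult hermaphrodite, with a germ line that makes oocytes, has a large demand for ribosomes. Cells need most of the proteins in equal amounts, while each protein is encoded at its own locus, mostly in 1 copy in the worm. Many messenger RNAs of this species receive a spliced leader, which removes the original end of the transcript. An annotated start can then lie downstream of the place where transcription began.

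The results turn on 8 genes of the 50, the called genes, that had a peak in the authors' conservative thresholded list, the list of sites that were reproducible between the replicates. To show what lies under the strongest signal, the 100 bases around each of these 8 summits are given, 5′ to 3′ on the strand of the gene, from the RefSeq copy of WBcel235. They lie on chromosome III for rpl-3 (3867532 to 3867631) and rpl-35 (7854639 to 7854738), and on chromosome IV for rpl-15 (654883 to 654982), rpl-20 (4750026 to 4750125), rpl-12 (13240653 to 13240752) and rpl-7A (4390621 to 4390720). That of rpl-11.2 is on X (2242944 to 2243043) and that of rpl-36.A on II (11097489 to 11097588). The genes rpl-3 and rpl-35 are on the plus strand and the other 6 on the minus strand. No window touched an annotated UTR. Capitals mark the 5 six-base words that are described next.
rpl-3: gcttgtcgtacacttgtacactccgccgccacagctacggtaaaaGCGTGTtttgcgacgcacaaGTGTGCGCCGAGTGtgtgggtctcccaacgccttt
rpl-15: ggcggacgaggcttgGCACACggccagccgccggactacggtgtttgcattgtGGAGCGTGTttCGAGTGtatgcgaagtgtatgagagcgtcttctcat
rpl-20: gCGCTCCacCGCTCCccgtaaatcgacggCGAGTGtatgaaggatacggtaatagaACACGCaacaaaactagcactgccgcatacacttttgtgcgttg
rpl-35: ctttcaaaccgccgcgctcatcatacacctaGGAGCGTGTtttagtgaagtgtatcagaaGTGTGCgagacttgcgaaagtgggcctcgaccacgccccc
rpl-12: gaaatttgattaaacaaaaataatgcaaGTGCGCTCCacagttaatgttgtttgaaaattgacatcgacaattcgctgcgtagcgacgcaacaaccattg
rpl-7A: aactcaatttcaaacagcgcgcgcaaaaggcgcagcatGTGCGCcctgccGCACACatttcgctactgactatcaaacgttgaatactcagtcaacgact
rpl-11.2: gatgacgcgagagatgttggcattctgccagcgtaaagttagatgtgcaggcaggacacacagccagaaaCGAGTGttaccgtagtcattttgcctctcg
rpl-36.A: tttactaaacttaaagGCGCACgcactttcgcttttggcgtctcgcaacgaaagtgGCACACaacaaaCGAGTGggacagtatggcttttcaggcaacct

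The windows were rich in G and C for this genome. Their median GC content was 51.5% (range 38 to 58), close to the 51% of the 543 other summits of the conservative list. Windows of the same length placed at −316 bp from the starts of all 19973 protein-coding genes, the median position of the 8 summits, had a median of 34%. At that distance the 42 other large-subunit genes had 37%. Windows centred on the ranked summits that 38 of these genes had gave a median of 46.5% (23 to 63), nearer to that of the called genes.

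A few words recurred. The 5 six-base words were those, of 2080 read on both strands, with the largest difference in share between the 8 windows and the windows upstream of all protein-coding genes. They were chosen from these same 8 windows, so their high shares there, and the gap to the upstream windows, follow from the choice. The 2 sets of windows also differed in median GC content, 51.5% against 34%. The words are a description with no test. The first, CACTCG, is read as CGAGTG on the opposite strand. It was present in 5 of the 8 windows (62.5%), in 9.58% of the other conservative summits and in 1.71% of all protein-coding windows. In all 5 (rpl-3, rpl-15, rpl-20, rpl-11.2 and rpl-36.A) it read CGAGTG on the strand of the gene. It began 14 to 23 bp downstream of the summit in 4 of them and 21 bp upstream of it at rpl-20. Among 284 other protein-coding genes with a conservative peak, 20 had it as CACTCG on the strand of the gene and 15 as CGAGTG. These 284 include K11H12.8, Y17G9B.5 and nuo-1, opposite-strand genes that share the peaks of rpl-15, rpl-20 and rpl-36.A. On the strand of those genes the same sites read CACTCG. The windows compared are therefore not all different ones, and the orientation at these sites depends on the gene chosen.

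The other 4 words were also spread over several of the windows. GCACAC was in 5 (62.5%, against 10.9% of the other conservative summits and 3.19% of all protein-coding windows). ACACGC was in 4 (50%), against 9.76% and 1.75%. The word CGCTCC was in 4 (50%), against 10.1% and 1.76%. Last, GCGCAC was in 4 (50%), against 13.3% and 1.80%. Some of them overlap, as in the run GGAGCGTGT at rpl-15 and rpl-35. The windows of the 4 strongest sites (the first 4 listed above) shared a longer word, AACACGC, found in 2.76% of the other conservative summits and 0.651% of all protein-coding windows. They also shared AAGTGTA (1.47% and 1.55%). Both were picked after the windows had been seen. The words also occurred in related windows. At the ranked summits of 38 large-subunit genes with no conservative peak, CACTCG was in 2 (5.26%), while GCACAC was in 3 (7.89%). In the same 38, ACACGC was in 4 (10.5%), while CGCTCC was in 2 (5.26%), and GCGCAC in 6 (15.8%). The share of ACACGC in these 38 was slightly above that at the other conservative summits. That of GCGCAC was above it too, while the shares of the rest were below. At the 10 small-subunit genes with a conservative peak, CACTCG was in 1 (10%), while GCACAC was in 2 (20%). In those 10, ACACGC was in 0, while CGCTCC was in 3 (30%), and GCGCAC in 1 (10%).

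The 8 words taken from known promoter elements and simple repeats, read on both strands, were nearly all missing from these windows. GAGAGA was in 1 of 8, in 18.0% of the other conservative summits and in 5.85% of all protein-coding windows. The other 7 were in 0 of 8. Their shares of all protein-coding windows were 1.13% for CTGCGTC, then 1.83% for CCCGCC, then 12.4% for TATAAA, then 3.87% for GATAAG, then 1.48% for CACGTG, then 0.626% for TGACGTCA and 12.5% for TTTTTTTT. At the other conservative summits the 7 were uncommon too, from 0.184% for TGACGTCA to 6.45% for CCCGCC. In 8 windows, 0 cannot be told from shares this low. A missing word says only that these letters are not in these windows.

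The conservative list placed a peak at 8 of the 50 large-subunit genes (16%, exact 95% binomial interval 7.17 to 29.1), when a summit within 500 bp of any annotated transcript start was counted. Among all protein-coding genes 292 of 19973 had one (1.46%). The second thresholded list of the series placed a peak at 7 of the 50 (14%; 1.55% of all protein-coding genes), lacking rpl-36.A. The thresholded list of replicate 1 alone named 6 (12%; 0.661%), and that of replicate 2 named the same 6 (12%; 0.696%). These 6, with a peak in all 4 thresholded lists, were rpl-3, rpl-7A, rpl-12, rpl-15, rpl-20 and rpl-35. The 4 thresholded lists, like the 4 ranked lists used below, all come from the same 2 replicates, so they are not separate observations. The 2 thresholded lists of the series gave the same signal at each of the 7 genes that both name. The share in each list exceeded that of all protein-coding genes, and the intervals cover counting error only.

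**Figure D1:**
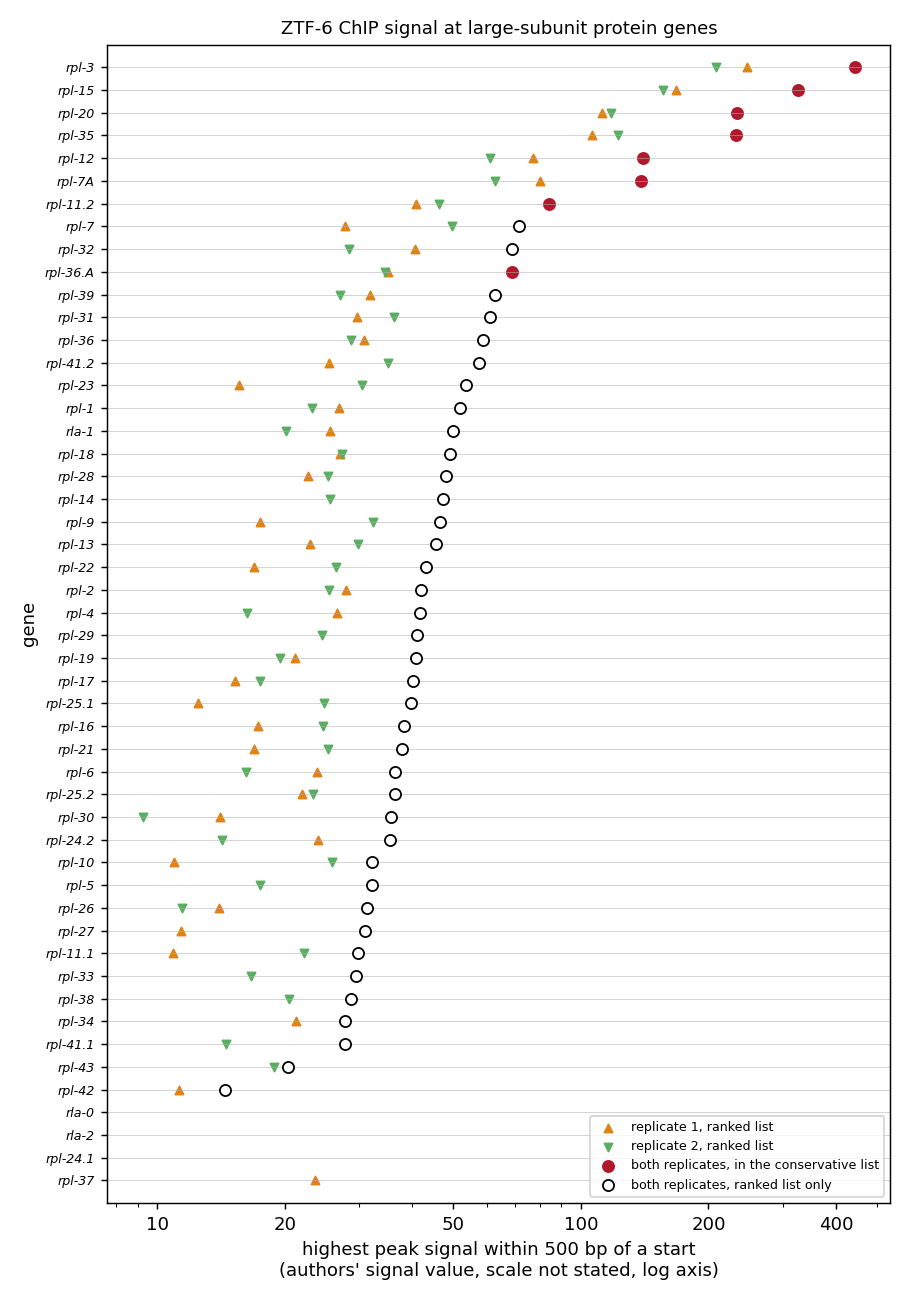
Highest peak signal within 500 bp of a transcript start (log axis, authors' signal value) at each of the 50 large-subunit genes. Circles are the list built from both replicates, filled for the 8 genes in the conservative thresholded list, and triangles are each replicate's own ranked list. Signal falls from 443.5 at rpl-3 to 84.1 at rpl-11.2 over the first 7 genes, all filled, the last filled circle is rpl-36.A at 68.8, and 38 open circles lie between 14.4 and 71.4.

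The gene with the strongest site was rpl-3, which encodes uL3, a protein that in yeast reaches toward the peptidyl transferase centre. The gene (WBGene00004414) lies on chromosome III (3867854 to 3869587, plus strand). Its peak (3867473 to 3867682) had a signal of 443.5 in the conservative list, 246.2 in replicate 1 and 208.2 in replicate 2. It ranked first of all 19973 protein-coding genes in each of the 4 ranked lists, the longer lists made before thresholding, although peaks away from protein-coding starts reached 3566 in the conservative ranked list. No peak of higher signal passed the authors' threshold: in each of the 4 thresholded lists the rpl-3 peak was the highest. It was the 1 peak of 253 in the replicate 2 thresholded list with an authors' q-value of at most 0.05 (0.0370, against 0.0286 in replicate 1 and 0.0196 in the conservative list). The summit lay 272 bp upstream of the nearest of 3 annotated starts, and no other gene had a start within 500 bp of it.

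Next came rpl-15 (WBGene00004427, chromosome IV, 653480 to 654576, minus strand), which encodes eL15. Its signal was 324.7 in the conservative list, 167.3 in replicate 1 and 156.7 in replicate 2. Among all protein-coding genes it ranked 3 of 19973 in the conservative and the replicate 1 ranked lists, and 5 in that of replicate 2. The summit lay 356 bp upstream of rpl-15 and 458 bp upstream of K11H12.8, a gene on the opposite strand, so the peak cannot be given to one of them alone.

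Close behind, and close to each other, were rpl-20 and rpl-35. The first (WBGene00004432, chromosome IV, 4749123 to 4749778, minus strand) is the gene of eL20 by its RefSeq product name. The other (WBGene00004449, chromosome III, 7855134 to 7855646, plus strand) encodes uL29, a protein at the mouth of the exit tunnel. The rpl-20 signal was 233.8 in the conservative list, 112.1 in replicate 1 and 118.0 in replicate 2. At rpl-35 it was 231.9, 106.3 and 122.5. The replicates put the pair in opposite orders, so their order is not settled. The rpl-20 summit lay 297 bp upstream of rpl-20 but 165 bp upstream of Y17G9B.5, which was the nearer gene. The rpl-35 summit lay 445 bp upstream, the farthest of the 8, with no other start nearby.

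The next pair also could not be told apart. The gene rpl-12 (WBGene00004424, chromosome IV, 13239587 to 13240651, minus strand) encodes uL11, at the base of the stalk. Its signal was 139.96 in the conservative list, 76.95 in replicate 1 and 61.04 in replicate 2. At rpl-7A (WBGene00004419, chromosome IV, 4389143 to 4390590, minus strand), which encodes eL8, it was 138.8, 80.2 and 62.9. Both replicates put rpl-7A just above rpl-12, while the conservative list put it just below. Among the 8 called genes, these were the 2 whose peaks sat nearest the start, 51 bp upstream of rpl-12 and 80 bp upstream of rpl-7A.

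The rpl-7A window was the only one of the 8 with a stretch repeated elsewhere. Of its 100 bases, 44 lay in words of 25 bases that also occur on chromosome X (59266 to 59309). Over that copy 1 ranked peak had a signal of 34.1 and an irreproducible discovery rate (IDR) of 0.545. Whether reads were shared between the places was not tested. Among the 38 windows at ranked summits of the other members, 2 had such a stretch, those of rpl-42 and rpl-33.

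The last pair in the conservative list, rpl-11.2 and rpl-36.A, was absent from both replicates' own thresholded lists. At rpl-11.2 (WBGene00004423, X, 2241738 to 2242618, minus strand), 1 of 2 genes for uL5, the signal was 84.1 in the conservative list, 40.8 in the ranked list of replicate 1 and 46.3 in that of replicate 2. At rpl-36.A (WBGene00004454, chromosome II, 11096542 to 11097204, minus strand), the gene of eL42, it was 68.8, 35.0 and 34.6. The IDR between the replicates was 0.00184 at rpl-11.2 and 0.00712 at rpl-36.A, against 1e-05 at rpl-3 and 0.000189 at rpl-12. In the second ranked list the IDR at rpl-36.A was 0.102, while no peak of the conservative list exceeded 0.00997. Both summits lay nearer to non-coding RNA genes than to the ribosomal protein gene. That at rpl-11.2 was 375 bp upstream of it and 122 bp upstream of AH9.7 and linc-78. That at rpl-36.A was 334 bp upstream of it, 10 bp upstream of C09H10.11, 63 bp downstream of the start of C09H10.13 and 299 bp upstream of nuo-1, a respiratory chain gene.

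A second tier lay just below the threshold. With ranked peaks at an IDR of at most 0.05 counted, 14 of the 50 genes had one (28%), against 2.72% of all protein-coding genes. The 6 that joined were rpl-32 (signal 68.8, IDR 0.0133), rpl-39 (62.7, 0.0334), rpl-31 (60.99, 0.0128), rpl-36 (58.8, 0.0273), rpl-41.2 (57.4, 0.0316) and rpl-23 (53.4, 0.0442). In the second ranked list 4 of the 6 were again at an IDR of at most 0.05 (0.0125 to 0.0270), while the peak of rpl-36 was at 0.132 and that of rpl-23 at 0.688 (0.490 at its best peak). The replicates differed at rpl-23, with 15.6 in replicate 1, 30.5 in replicate 2 and summits 432 bp apart. Their summits lay 215 to 375 bp upstream, except that of rpl-31, which lay 105 bp downstream of a start. The rpl-32 signal was as high as that of rpl-36.A, at 40.6 in replicate 1 and 28.4 in replicate 2. The gene with the highest signal outside the conservative list was rpl-7, which encodes uL30, at 71.4. Its replicates differed, with 27.8 in replicate 1 and 49.7 in replicate 2, and its highest summits lay 516 bp apart. Its IDR was 0.0539.

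Outside the conservative list, the genes just named included, signal was mostly lower than at the called genes, or absent. Of the 42 with no conservative peak, 38 had a peak in the ranked list behind it, with signals from 14.4 to 71.4, and 32 of these 38 had no peak at an IDR of at most 0.05. The lowest were rpl-42 (14.4), rpl-43 (20.3) and rpl-41.1 (27.8). The stalk protein genes among the 50 differed in whether a ranked peak was present. The P1 gene rla-1 had 49.9 at an IDR of 0.228, with 25.6 in replicate 1 and 20.2 in replicate 2, and ranked 17 of the 50. By contrast rla-0 (uL10) and rla-2 (P2) had no peak in the conservative ranked list. The genes rpl-24.1 (eL24) and rpl-37 (eL37) had none either. Of these 4, rla-0 had a peak of 20.5 in the second ranked list and rpl-37 one of 23.5 in replicate 1 alone. In no ranked list did rla-2 or rpl-24.1 have one within 500 bp of a start. Outside that window, a summit 597 bp downstream of the rpl-24.1 start had 36.2 at an IDR of 0.726. The gene of the stalk base, rpl-12, ranked 5 of the 50. Another P2 gene, C37A2.7, lies outside the symbol rule and had 56.8 at an IDR of 0.0432. The absence at rla-2 thus does not hold for all P2 genes.

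Signal over the whole group was high as well as at its strongest members. With genes that lacked a peak counted at 0, the median signal of the 50 genes in the conservative ranked list was 41.3 (quartiles 31.4 and 58.5), against 19.8 over all protein-coding genes. A ranked peak was present at 46 of the 50 (92%) and at 60.7% of all protein-coding genes. The median large-subunit gene stood at percentile 89.2 of all protein-coding genes in that list, 87.0 in replicate 1 and 90.6 in replicate 2. In the conservative ranked list 23 of the 50 (46%) were among the top 10% of protein-coding genes and 7 (14%) among the top 1%. The 42 genes with no conservative peak, which were left after the strongest had been taken out, had a median percentile of 86.6.

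**Figure D2:**
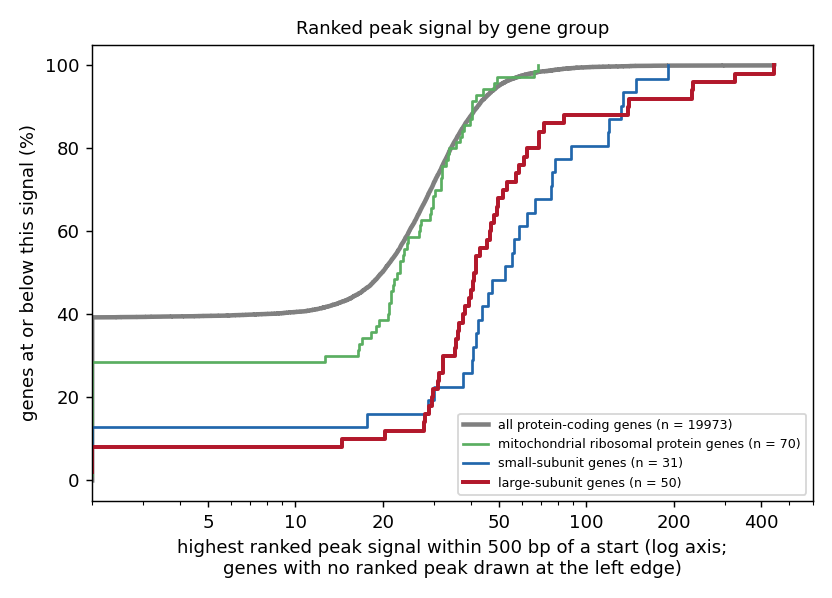
Cumulative share of genes (%) at or below each ranked peak signal (log axis) for the 50 large-subunit genes, 31 small-subunit genes, 70 mitochondrial ribosomal protein genes and all 19973 protein-coding genes. The 2 curves of the cytosolic ribosome lie to the right, with medians of 41.3 and 52.4, and the mitochondrial curve, with a median of 22.7, runs near that of all genes at 19.8.

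Other genes of the pathway placed these values. The 31 small-subunit genes (rps-) had a conservative peak at 10 (32.3%, exact 95% interval 16.7 to 51.4) and a median signal of 52.4, with rps-24 (191.4) and rps-1 (148.0) first. Their strongest site was lower than the 4 strongest of the large subunit. Their median percentile was higher, at 95.9 against 89.2. Of the 31, 20 (64.5%) were among the top 10% of protein-coding genes, against 46% of the large-subunit genes. Whether the groups differ in the share with a conservative peak was not tested, and the intervals overlap. Mitochondrial ribosomal protein genes (mrpl- and mrps-) had a conservative peak at 1 of 70 (1.43%), mrpl-55 (65.9), and a median percentile of 55.6. Translation factor genes had 4 of 38 (10.5%), led by iff-2 (177.6) and eef-1G (96.9), and a median percentile of 80.7. Of 21 listed symbols of nucleolar and ribosome assembly genes 19 were found, with 0 peaks (upper 95% limit 17.6%) and a median percentile of 57.9. Subunit genes of RNA polymerases I and III had 0 of 8 (upper limit 36.9%).

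The peaks lay upstream of the genes. All 8 summits were upstream of the nearest start of the member (exact 95% interval 63.1 to 100%), at a median position of −315.5 bp (negative values are upstream), and 6 of the 8 (75%) lay 200 to 500 bp upstream. Of 304 pairs of a conservative peak and a protein-coding gene, 86.2% had the summit upstream and 148 (48.7%) had it 200 to 500 bp upstream, and the median position of the 304 was −194 bp. In the replicates' own lists the 6 summits were again all upstream, at median positions of −290.5 bp in replicate 1 and −283 bp in replicate 2. In the conservative ranked list 31 of the 46 highest summits were upstream (67.4%), against 48.2% over all protein-coding genes. Among the 38 with no conservative peak, 23 were upstream and 15 downstream.

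**Figure D3:**
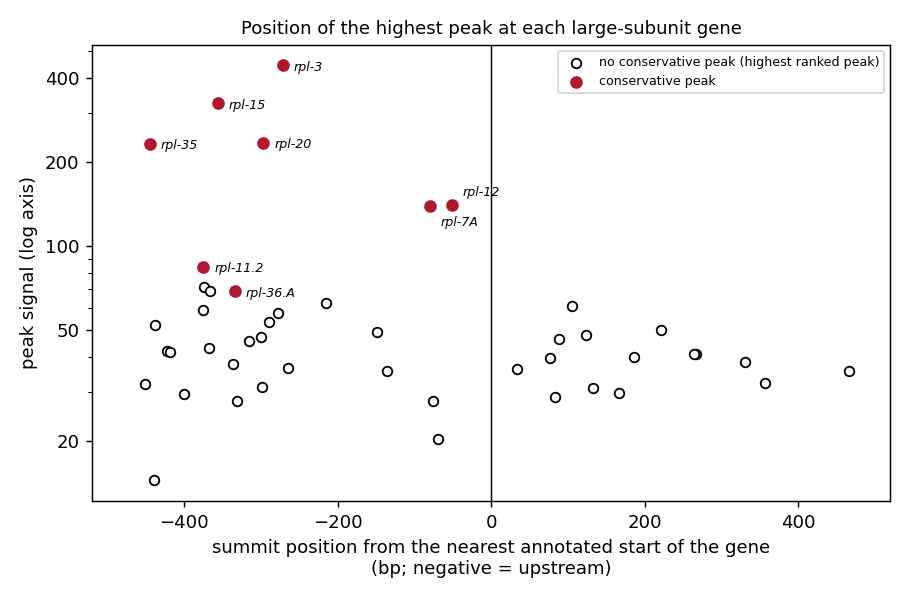
Signal (log axis) of the highest peak at each of 46 large-subunit genes against the position of its summit (bp from the nearest annotated start, negative values upstream). The 8 filled points, genes in the conservative list, lie between 445 and 51 bp upstream, and the 38 open points lie on both sides.

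The width of 500 bp matters for a group whose summits sit far upstream. The farthest counted summit was that of rpl-35. Beyond the edge, conservative peaks lay 688 bp downstream of the start of rpl-27 (signal 102.5) and 750 bp upstream of rpl-43 (135.5). A window of 1000 bp would count both. The rpl-27 summit lies past the annotated end of that gene (1834883 to 1835438, plus strand). In the ranked list a summit 519 bp upstream of rla-1 had a signal of 53.6 and an IDR of 0.0569. It lies 107 bp downstream of the start of the neighbouring gene Y37E3.8, which RefSeq names rpl-27A (uL15).

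Several of the sites stood between genes that point away from each other. At 6 of the 8 called genes the nearest upstream protein-coding gene lay on the opposite strand, as it did at 27 of the other 42. At 5 of the 8 the peak was also within 500 bp of the start of that or another protein-coding gene. The rpl-12 peak lay 342 bp upstream of lin-54, and the rpl-7A peak 174 bp upstream of set-21 and 362 bp upstream of the snoRNA gene Y24D9A.9. At 3 of the 8 (rpl-20, rpl-11.2 and rpl-36.A) another gene had the nearer start. Such loss was general: of all protein-coding genes 292 had a conservative peak, and 175 kept one with the nearest start only. The other counts in this paragraph were not made over all protein-coding genes, so they do not mark these sites as unusual. The gap to the upstream gene had a median of 622 bp at the 8 called genes (253 to 11497) and 566 bp at the other 42 (0 to 3256). Genes of snoRNAs, which guide modification of ribosomal RNA, lay inside 2 of the 8 called genes, rpl-15 and rpl-7A, and inside 6 of the other 42.

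Some large-subunit genes share their upstream region with a small-subunit gene. The pairs rpl-39 with rps-30 (498 bp apart), rpl-36 with rps-14 (662 bp) and rpl-24.1 with rps-10 (609 bp) are divergent. The highest ranked peak was the same for both genes of the first pair (62.7) and of the second (58.8). In neither case did it pass the authors' threshold. Between rpl-24.1 and rps-10 no such shared peak was seen: rps-10 had one of 30.0, 234 bp downstream of its start, and rpl-24.1 none.

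Copies of a gene were compared next. The uL5 genes rpl-11.1 and rpl-11.2 had 29.8 and 84.1 in the conservative ranked list. In replicate 1 the values were 10.9 and 40.8, and in replicate 2 they were 22.2 and 46.3, so rpl-11.2 was higher in both. The neighbouring rpl-41.1 and rpl-41.2 had 27.8 and 57.4, with 14.5 and 35.0 in replicate 2, and rpl-41.1 had no ranked peak in replicate 1, where rpl-41.2 had 25.5. The uL23 genes rpl-25.1 and rpl-25.2 had 39.7 and 36.4. Their order differed between the replicates, with 12.5 and 22.0 in replicate 1 and 24.7 and 23.4 in replicate 2. Symbols with the same number do not always mark copies of 1 gene. RefSeq gives uL30 for rpl-7 (71.4) and eL8 for rpl-7A (138.8), and eL36 for rpl-36 (58.8) and eL42 for rpl-36.A (68.8).

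Checked against RefSeq by gene ID, 49 of the 50 genes had a product name with the word ribosome or ribosomal. The exception was rpl-42, named as a protein with a NAM-associated domain, which also had the lowest signal of the 46 with a peak. The product of rpl-24.2 (35.5) is named as a putative ribosome biogenesis protein. Genes that RefSeq names for this subunit under other Ensembl symbols were no members. They were C37A2.7 (P2, ranked signal 56.8), Y37E3.8 (uL15, 53.6), F28A10.13 (L35, 51.8), T08B6.1 (L35a, 16.7) and W01D2.1 (L37, no ranked peak). No conservative peak lay within 500 bp of a start of these genes.

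The replicates agreed in order at the strong sites and less so below them. Both put rpl-3 first and rpl-15 second, the pair of rpl-20 and rpl-35 next, then rpl-7A and then rpl-12. A ranked peak was present in both replicates at 36 of the 50 (72%, against 30.2% of all protein-coding genes), in replicate 1 alone at 4 and in replicate 2 alone at 7, with none in either at 3. Over the 36 genes, which share their 2 libraries, Spearman's rho of the signal was 0.705 and Pearson's r on the log2 scale was 0.872. Without the 8 called genes rho was 0.391 and r was 0.329 over 28 genes. Over 6025 protein-coding genes with a ranked peak in both, rho was 0.339 and r was 0.449.

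**Figure D4:**
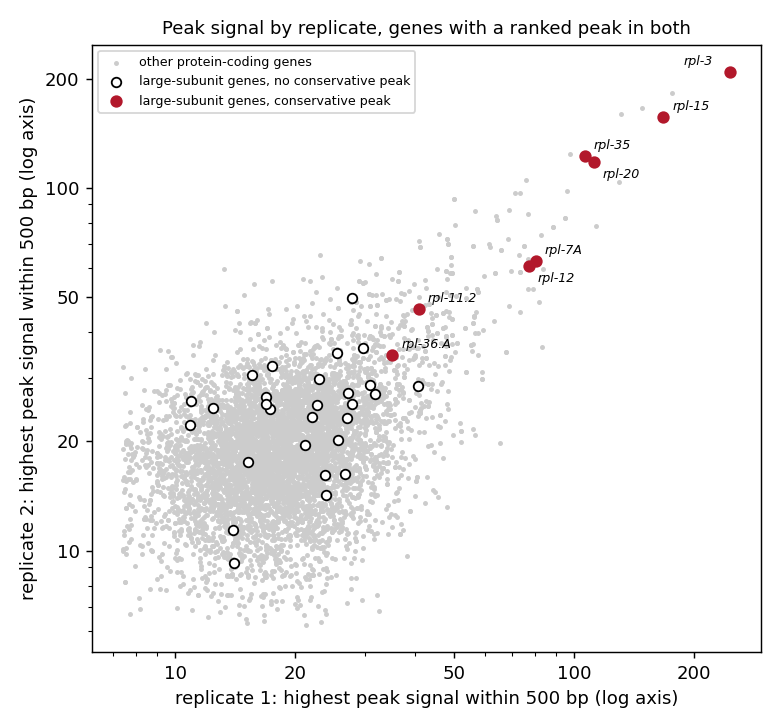
Highest ranked peak signal within 500 bp of a start in replicate 1 and replicate 2 (both log axes), for genes with a peak in both. Filled points are the 8 large-subunit genes in the conservative list, open points are 28 others and grey points are other protein-coding genes. The filled points run along the upper end of the cloud, from 35.0 and 34.6 at rpl-36.A to 246.2 and 208.2 at rpl-3.

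The conservative list was itself made from the agreement of the replicates, so closer agreement at the called genes is a description of that choice. Summit positions followed the same split. At the 8 called genes the highest summits of the replicates lay 1 to 31 bp apart, with a median of 11.5 bp. At the 28 others with a peak in both replicates the median distance was 58 bp, 13 lay within 50 bp of each other and 10 lay over 200 bp apart. Of the genes outside the conservative list, 5 had summits at most 5 bp apart, namely rpl-36 (0 bp), rpl-32 (1 bp), rpl-13 (3 bp), rpl-39 (4 bp) and rpl-41.2 (5 bp). These were picked after their values had been seen.

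The called genes lay on 4 of the 6 nuclear chromosomes. Chromosome IV held 4 called genes among its 8 members (1.62% of its protein-coding genes had a conservative peak), chromosome III 2 of 9 (2.35%), chromosome II 1 of 9 (1.33%) and X 1 of 2 (1.24%). Of the 17 members on chromosome I, 0 were called (upper 95% limit 19.5%, against 1.88% of its protein-coding genes), and of the 5 on chromosome V, 0 (upper limit 52.2%, against 0.861%). The median ranked signal of the members was 32.1 on chromosome II, 40.9 on I, 41.9 on V, 46.6 on III, 61.9 on X and 94.0 on IV. The order of these medians was thus not that of the counts, since chromosome II, with 1 called gene, had the lowest. The 3 members with the highest ranked signal on chromosome I were rpl-7 (71.4), rpl-31 (60.99) and rpl-41.2 (57.4). Differences between chromosomes were not tested.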

How the data were processed

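ZTF-6 ChIP-seq of whole young adult worms was analysed from the peak lists the authors deposited for 2 biological replicates and for the replicates together. Per the labels, positions are on ce11 and chromatin had been sonicated to 200 to 800 bp. Per the deposited file lists, the peaks rest on filtered alignments set against a control, which was not analysed here. For the aligner and the peak caller, names were not given in the sources used here. Column 7, the deposited signal of each peak, has no stated scale and was used to rank and describe peaks within a list. The deposited score is a whole number up to 1000 scaled from the IDR. The authors' q-values and IDR values are deposited as −log10 values. Depth is unknown from these lists.

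Transcript starts came from Ensembl release 115, and bases from RefSeq's WBcel235, whose chromosomes contained all peaks. Each gene received the highest signal among summits at most 500 bp from any of its starts. The ranked list behind the conservative list was recognised because it held all 551 of its peaks with the same score. The assignment was tested on simulated data (165 of 165 pairs recovered for 200 summits). Percentiles are over all nuclear protein-coding genes, with 0 for genes without a peak. Intervals are exact binomial (Clopper-Pearson) at 95% and cover counting error only. No significance test was run, since the study has 1 group. Python 3.11.15 with numpy, pandas and scipy was used.

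The text names each member with a thresholded peak, the 3 highest and 3 lowest others by ranked signal, copies of called genes and up to 2 genes of other lists. All other members given with values, among them those without a ranked peak, the 6 added at an IDR of 0.05, rla-1, rpl-13, rpl-24.2, rpl-25.1, rpl-25.2, rpl-27 and rpl-33, were named after their values were seen. The members and lists were chosen with earlier results of these data known. Alternatives covered the window, the starts, the list, the IDR and the overlap rule.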

Additional observations from a re-analysis of the deposited data

How the results depend on the processing

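The number of large-subunit genes with a peak was 8 in the conservative list. It was 2 at a window of 200 bp, 5 with the nearest start only and 14 at an IDR of at most 0.05 in the ranked list. The background shares in these settings were 0.696%, 0.876% and 2.72%. It was within 1.5 times of 8 in the other 7 settings (6 to 10). Both lists of a single replicate gave 6, losing rpl-11.2 and rpl-36.A, as did an IDR of at most 0.001. The share of 16% became 4% at 200 bp and stayed inside its interval elsewhere (10% to 28%). With the nearest start only, rpl-20, rpl-11.2 and rpl-36.A were lost.

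The median summit position was −315.5 bp. It was −65.5 at 200 bp, −272 with nearest starts, −297 in the other thresholded list, −284.5 at an IDR of 0.001 and −293 at 0.05. Leaving out a replicate gave −290.5 to −283. The share upstream was 90% to 100% in all 10 settings. The median signal of 185.9 was 139.4 at both 200 bp and 1000 bp, 231.9 with nearest starts and in the other list, 232.8 at an IDR of 0.001 and 76.4 at 0.05. In the lists of single replicates, whose signals are not on the same footing, it was 109.2 to 120.3. These follow which genes are counted. Spearman's rho between replicates was 0.632 over 13 genes at 200 bp and 0.610 over 43 at 1000 bp. No paired analysis was possible because the study has 1 group. Read depth is not in the lists, so weak peaks cannot be told from absent ones.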
